A study of Mus musculus with 6 samples.

Results

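UBE2O is a large ubiquitin enzyme that both conjugates ubiquitin and selects the proteins to be modified, which are called its clients. The genes described here are Ube2o itself and 5 genes whose proteins have been reported as UBE2O clients, Smad6, Traf6, Bap1, Kmt2a (formerly Mll) and Vhl. They were chosen by gene symbol, with every array probe annotated to them, and make up 6 of the 20289 genes named on the array, measured by 11 of its 45281 probes. The arrays were single-colour Illumina BeadChips hybridised with labelled RNA of mouse embryonic fibroblasts (MEFs), primary connective tissue cells grown from C57BL6 embryos of day 13.5. One group of 3 arrays came from MEFs stably expressing a short hairpin RNA (shRNA) against Ube2o, which lowers its messenger RNA, and the other group of 3 arrays from MEFs stably expressing an shRNA against GFP, a jellyfish protein that the cells lack. The sample labels carry a single hairpin code for Ube2o, sh41, so an effect of UBE2O loss and an effect of that hairpin on other transcripts cannot be told apart. The cells are called independent for each shRNA, without word on separate embryos, so the p-values reflect the scatter of these arrays alone, some of which may be technical.

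UBE2O acts on proteins, so a client's messenger RNA need not move when UBE2O is lost. SMAD6 is an inhibitory SMAD that holds back signalling from bone morphogenetic protein (BMP) receptors, and its modification by UBE2O has been reported to relieve that block. TRAF6 is a ubiquitin ligase that passes signals from interleukin-1 and Toll-like receptors to NF-κB, BAP1 is a nuclear deubiquitinase of histone H2A, KMT2A is a histone H3 methyltransferase that maintains Hox gene expression, and VHL is the part of a ubiquitin ligase that binds hydroxylated HIF-α. For these proteins UBE2O has been reported to dampen TRAF6 signalling, to keep BAP1 out of the nucleus and to promote the degradation of KMT2A and VHL. The arrays answer whether the transcripts of these proteins changed.

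Background was estimated on each array from its dimmest probes, and 43.1% to 44.9% of probes exceeded it. Across probes, normalized log2 values correlated at 0.991 to 0.992 between arrays of a group and at 0.983 to 0.986 between the groups. All 8 fibroblast markers examined, among them the collagen genes Col1a1, Col1a2 and Col3a1 and the vimentin gene Vim, lay above background on all 6 arrays. One of them, the growth factor receptor gene Pdgfra, fell (log2 change -0.76, adjusted p = 0.000333 in limma). The leukocyte genes Ptprc, Cd68, Adgre1 and Itgam and the endothelial genes Cdh5, Kdr and Tek lay above background on 0 arrays. The leukocyte gene Csf1r lay above it on 2 Ube2o shRNA and 2 GFP shRNA arrays, and the endothelial gene Pecam1 on 1 and 1. Of the epithelial genes, Krt8 did so on 2 Ube2o shRNA and 3 GFP shRNA arrays, Cdh1 on 2 and 1, and Epcam and Krt18 on 0. Of the neural genes, Sox2 and the nestin gene Nes lay above background on all 6 arrays, and Tubb3 and Elavl3 on 0. Sox2 was dim, with a mean signal of 189 with Ube2o shRNA and 186 with GFP shRNA. Of the skeletal muscle genes, the desmin gene Des lay above background on all 6 arrays, Myog on 1 GFP shRNA array and Myod1 on 0. Among the markers of other cell types, Cd14 fell by 0.57 (adjusted p = 0.00458) and Des by 0.65, and Nes rose by 0.51. The summed signal of the 6 leukocyte markers was 1083 to 1245 with Ube2o shRNA and 1372 to 1408 with GFP shRNA. Within that sum, Cd14 alone averaged 402 with Ube2o shRNA and 595 with GFP shRNA, while Ptprc, Cd68, Adgre1 and Itgam were at background. Its part in the results was not tested. With 3 arrays a group, the number of arrays sets the precision throughout.

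The Ube2o transcript was lower on every Ube2o shRNA array, and not one of the 5 client genes passed the test. Signals deposited for the single Ube2o probe were 668, 851 and 650.3 on the Ube2o shRNA arrays, against 1875, 1961 and 2091 on the GFP shRNA arrays. The groups did not overlap, and the Ube2o shRNA arrays spread more widely than the controls. After background correction and quantile normalization the log2 intensity was 9.48, 9.47 and 9.21 with Ube2o shRNA and 10.87, 10.83 and 10.82 with GFP shRNA. The log2 change, Ube2o shRNA minus GFP shRNA, was -1.45 (SE 0.12, n = 3 arrays per group, limma adjusted p = 3.15e-07). This left 36.6% of the control level, with a 95% confidence interval of 30.8% to 43.3%. Over the whole array 4.94% of probes passed an adjusted p of 0.05, 2.25% higher and 2.69% lower with Ube2o shRNA, and 66 probes had a smaller p than Ube2o. In bulk RNA, fewer cells that express a gene and less RNA in each such cell cannot be told apart.

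**Figure D1:**
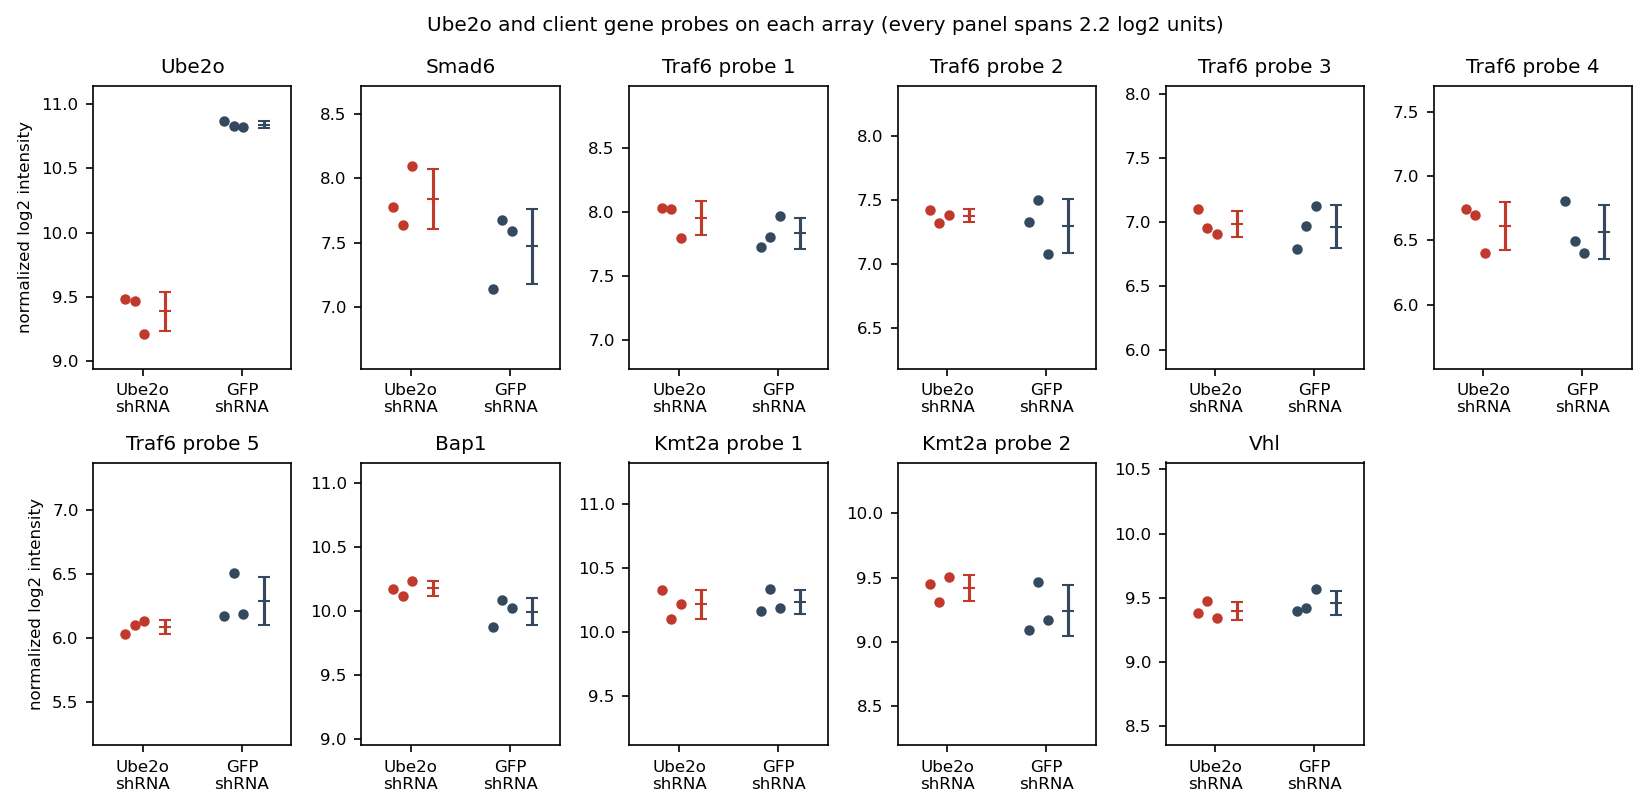
Normalized log2 intensity (vertical axis) of each probe of Ube2o and of the 5 client genes on the 3 Ube2o shRNA arrays (left, red) and the 3 GFP shRNA arrays (right, dark), with the mean and SD beside the points; probes of a gene are numbered from brightest to dimmest. The Ube2o groups lie 1.45 log2 units apart, while 8 of the 10 client probes have overlapping groups.

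Smad6 had the largest difference among the client genes and did not pass. Its 1 probe gave signals of 258, 293 and 344 with Ube2o shRNA, against 218, 288 and 290.3 with GFP shRNA. The groups overlapped, since the second Ube2o shRNA array, at a normalized log2 intensity of 7.64, lay below the second GFP shRNA array, at 7.68. The first GFP shRNA array, at 7.14, was the lowest of the 6 and the third Ube2o shRNA array, at 8.10, the highest. The log2 change was 0.37 (SE 0.15, n = 3 per group), with a limma p of 0.0243 before adjustment and 0.206 after it. The 95% confidence interval ran from 0.054 to 0.685, that is from 1.04 to 1.61 times the control level, where intervals are those of single probes with no allowance for the number of probes. Without the first GFP shRNA array the log2 change was 0.20, and it was 0.24 without Ube2o shRNA array 3.

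Traf6 was measured by 5 probes, of which 3 lay above background on all arrays. The brightest gave signals of 292, 358 and 294 with Ube2o shRNA, against 283, 307 and 354 with GFP shRNA, and normalized log2 intensities of 8.03, 8.02 and 7.80 with Ube2o shRNA, against 7.73, 7.80 and 7.97 with GFP shRNA. The groups overlapped, with 2 higher arrays and 1 lower in the Ube2o shRNA group. Its log2 change was 0.12 (SE 0.12, limma adjusted p = 0.708), with an interval from -0.13 to 0.37. The next 2 probes had log2 changes of 0.077 and 0.023, with adjusted p-values of 0.838 and 0.957. The fourth of them, which was designed on a cDNA clone sequence rather than on the reference transcript of the other probes, lay above background on 2 of 3 Ube2o shRNA and 1 of 3 GFP shRNA arrays and gives no fold. The dimmest lay above background on 0 of 6 arrays. Its signals of 132, 150 and 149 with Ube2o shRNA were all below those of 151, 165 and 156 with GFP shRNA, in the range of background. When the 5 probes were averaged the log2 change of Traf6 was 0.012.

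The Bap1 transcript differed little between the groups. Its 1 probe gave signals of 1043, 1291 and 1227 with Ube2o shRNA, against 972, 1209 and 1238 with GFP shRNA. On the deposited scale the groups overlapped. After normalization all 3 Ube2o shRNA arrays, at log2 intensities of 10.17, 10.12 and 10.24, lay above the GFP shRNA arrays, at 9.88, 10.09 and 10.02. The log2 change of 0.18 (SE 0.11, limma adjusted p = 0.484) had an interval from -0.059 to 0.418, up to 1.34 times the control level. Bap1 and the dimmest Traf6 probe were the 2 of 10 client probes whose normalized groups did not overlap, beside 21.4% of all probes and 38.7% of the probes above background on all arrays.

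The probes of Kmt2a, both made for the same reference transcript, did not pass the test. The brighter gave signals of 1148, 1282 and 1214 with Ube2o shRNA, against 1184, 1416 and 1384 with GFP shRNA, and had a log2 change of -0.017 (SE 0.12, interval from -0.26 to 0.23, limma adjusted p = 0.97). The dimmer gave 655, 771 and 775 with Ube2o shRNA, against 597, 810.3 and 719 with GFP shRNA, and had a log2 change of 0.18 (SE 0.12, interval from -0.083 to 0.441, limma adjusted p = 0.539). Groups overlapped for both. The difference between the probes on an array, brighter minus dimmer, was 0.88, 0.79 and 0.72 log2 units with Ube2o shRNA, against 1.08, 0.87 and 1.02 with GFP shRNA. The mean of this difference was 0.20 lower with Ube2o shRNA (log2 difference -0.20), and the values of the groups overlapped. An exact permutation test of 3 arrays against 3 cannot give a two-sided p under 0.1, so that test cannot settle whether the probes differ in their response (exact p = 0.2).

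Vhl had signals of 628, 855 and 699.7 with Ube2o shRNA, against 721, 792 and 927 with GFP shRNA. The groups overlapped, with the second Ube2o shRNA array among the higher values. The log2 change was -0.063 (SE 0.11, n = 3 per group, limma adjusted p = 0.858), with an interval from -0.30 to 0.17, which is 0.812 to 1.13 times the control level.

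Over the 5 client genes, taken by their brightest probe, 3 had positive and 2 negative log2 changes, with a median of 0.12 and a range from -0.063 to 0.37. The median over all genes was 0.0027. The intervals of 9 of the 10 client probes lay within a 1.5-fold change in either direction, and that of Smad6 reached 1.61-fold. A missed threshold does not show equality. With the error of its own probe, a change in Smad6 would have had to reach 1.44-fold to pass, and changes in Bap1, Vhl and the brightest Kmt2a and Traf6 probes 1.32-fold to 1.34-fold. The interval of Ube2o lay wholly below those of all 10 client probes.

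**Figure D2:**
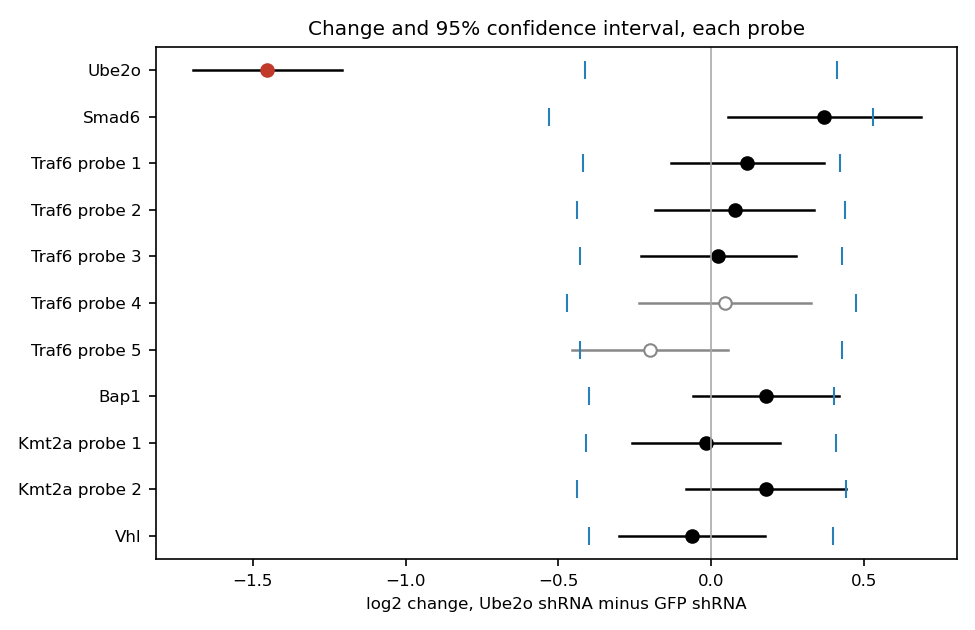
Log2 change (horizontal axis, Ube2o shRNA minus GFP shRNA) of each probe with its 95% confidence interval, with filled points for probes above background on all 6 arrays, open points for dimmer ones and red for the probe that passed. Blue ticks mark the change at which each probe would have passed an adjusted p of 0.05: Ube2o lies far outside them and the 10 client probes inside.

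Other proteins have been reported as UBE2O clients besides these. Of 5 further genes listed, 4 had a named probe and 0 passed, beside 6.86% of all genes by their brightest probe. Arntl, which encodes the clock factor BMAL1, had normalized log2 intensities of 9.44 ± 0.073 with Ube2o shRNA and 9.64 ± 0.089 with GFP shRNA (SD, n = 3 each), a log2 change of -0.20 (limma adjusted p = 0.427). Mxi1, a MAX partner that opposes MYC, had a log2 change of -0.051 (adjusted p = 0.9). Prkaa2, the gene of the AMPK subunit named in the series title, and the transcription factor gene Maf lay above background on 1 of 3 Ube2o shRNA and 0 of 3 GFP shRNA arrays each, too dim for a fold.

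Around SMAD6, of 14 measured BMP ligand, receptor and SMAD genes, 1 rose and 0 fell, with a median log2 change of -0.029. That is 7.14% of the list, near the 6.86% of all genes that passed. Of all genes above background on all arrays, as 8 of the 14 were, 13% passed. The gene that rose was Acvr2a, an activin and BMP type II receptor gene, at 7.67 ± 0.12 with Ube2o shRNA and 7.14 ± 0.21 with GFP shRNA (SD, n = 3 each), a log2 change of 0.53 (SE 0.13, limma adjusted p = 0.0198). Smad1 and Smad5, which carry the BMP signal, had log2 changes of -0.096 and 0.0015 and did not pass. The call of Acvr2a was lost with median scaling (adjusted p = 0.054) and without the first or second Ube2o shRNA array or the first or second GFP shRNA array (adjusted p from 0.053 to 0.111).

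Of 14 measured BMP target genes, 3 rose and 2 fell, beside 2.91% and 3.95% of all genes, with a median of -0.04. These calls are 35.7% of the list. Of all genes above background on all arrays, as 8 of the 14 were, 13% passed in either direction. Id2, an inhibitor of basic helix-loop-helix factors, rose by 1.13 on the log2 scale (SE 0.15, limma adjusted p = 8.79e-05), and its other 2 probes rose by 0.78 and 0.86. Hey1, a repressor that also responds to Notch, rose by 0.76 and Grem1, a secreted BMP antagonist, by 0.65. The homeobox gene Msx1 fell by 0.99 (SE 0.12, limma adjusted p = 3.24e-05) and Id4, of the same family as Id2, fell by 0.83. Id1 and Id3, the most used readouts of BMP signalling, had log2 changes of 0.18 and -0.017 and did not pass. The dimmer probe of Id4, above background on 6 arrays, did not pass (log2 change -0.30), and that of Msx1 lay above background on 2 of 6 arrays. Id2 lies on chromosome 12, whose genes had a median log2 change of 0.26, and still passed once that was subtracted (log2 change 0.87). Grem1 was named beyond the limit of 4 called genes per list, after its values were seen. The lists themselves were chosen with earlier results of these data known, so their shares of calls are descriptive.

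Around TRAF6, 5 of 21 measured genes fell and 0 rose, with a median log2 change of -0.23. All but 1 of the 21 lay above background on all arrays, and of all genes that did so 13% passed in either direction. Irak1, the kinase that hands the receptor signal to TRAF6, had log2 intensities of 8.67 ± 0.12 with Ube2o shRNA and 9.38 ± 0.11 with GFP shRNA (SD, n = 3 each) and fell by 0.71 (SE 0.12, limma adjusted p = 0.000993). Traf2, the adaptor of TNF receptors, fell by 0.54, Ikbkg, the NEMO subunit of the IκB kinase, by 0.50, and Cyld, the deubiquitinase that trims the chains that TRAF6 builds, by 0.48. Tab3, an adaptor that binds those chains, fell by 0.48 and was named beyond the limit of 4 called genes per list, after its values were seen. Myd88, which recruits the kinases to the receptor, and Map3k7, the kinase TAK1, had log2 changes of -0.079 and 0.22 and did not pass.

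Of these 5 genes, 3 (Irak1, Ikbkg and Tab3) lie on the X chromosome, whose 356 genes above background on at least 3 arrays had a median log2 change of -0.16. With that median subtracted Irak1 still passed (log2 change -0.55, adjusted p = 0.00857), while Ikbkg and Tab3 did not (adjusted p = 0.095 and 0.146). The part of the X-wide difference in these falls was not tested further. Of the 3 other probes of Irak1, 2 lay above background on all arrays and did not pass (log2 changes of -0.40 and -0.31), and of the 2 other probes of Cyld, 1 passed (log2 change -0.48). Cyld did not pass without Ube2o shRNA array 1 or 3 or GFP shRNA array 2 or 3 (adjusted p from 0.055 to 0.111), nor with its probes averaged (adjusted p = 0.058) or a smaller normexp offset (adjusted p = 0.158). The number of genes that fell was 3 without Ube2o shRNA array 2 or 3, and 2 without GFP shRNA array 2 or 3. Irak1 passed in all 18 alternatives run.

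Of 10 measured partners of BAP1, 1 rose and 0 fell, with a median log2 change of 0.00012, which is 10% of the list beside 6.86% of all genes and 13% of those above background on all arrays. The riser was Foxk2, a forkhead factor that brings BAP1 to DNA, with a log2 change of 0.43 (SE 0.12, limma adjusted p = 0.0431), a call kept in 8 of 18 alternatives. Its other 2 probes, both above background on all arrays, had log2 changes of -0.16 and -0.045. It did not pass with the probes averaged (adjusted p = 0.697), nor when any 1 array other than the second Ube2o shRNA array was left out (adjusted p from 0.068 to 0.175). Asxl1 and Asxl2, the cofactors that activate BAP1, and Hcfc1 had log2 changes of 0.17, 0.23 and -0.0088 and did not pass.

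Of 20 measured genes of KMT2A partners and related methyltransferases, all above background on every array, 1 fell and 1 rose, which is 10% of the list beside 13% of all genes so measured. Kmt2e, a KMT2 family member, had log2 intensities of 8.33 ± 0.14 with Ube2o shRNA and 8.98 ± 0.019 with GFP shRNA (SD, n = 3 each) and fell by 0.65 (SE 0.12, limma adjusted p = 0.00203). Mllt3, known as a fusion partner of KMT2A in leukaemia, had a log2 change of 0.39 (adjusted p = 0.0492) that did not pass when any 1 array was left out (adjusted p from 0.083 to 0.139), although 1 of its dimmer probes passed (log2 change 0.62). Mllt3 lies on chromosome 4, whose genes had a median log2 change of 0.14. With that median subtracted Mllt3 did not pass (log2 change 0.25, adjusted p = 0.228). The core subunit genes Rbbp5, Ash2l, Dpy30 and Wdr5 and the menin gene Men1 did not pass, with log2 changes of 0.29, 0.0062, 0.16, -0.39 and 0.32. Among 12 genes that KMT2A is known to regulate, 3 rose and 0 fell, with a median of 0.17. That is 25% of the list, beside 2.91% of all genes higher and 3.95% lower. Of all genes above background on all arrays, as 6 of the 12 were, 13% passed in either direction. The 3 that rose were Hoxa7 (log2 change 0.81, SE 0.13, limma adjusted p = 0.001), Eya1 (0.64) and Hoxc9 (0.55). Meis1, a homeobox partner of Hox proteins, had a log2 change of 0.094 and did not pass, while Hoxa9 and Hoxa10 lay above background on 1 and 0 of 6 arrays, too dim for a fold. Of the 3 dimmer probes of Eya1, which lay above background on 5, 5 and 0 arrays, 0 passed (log2 changes of 0.32 and 0.26 for the brighter ones).

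Around VHL, 1 of 16 measured genes of the ligase and of the HIF system rose and 0 fell, with a median of 0.023. That is 6.25% of the list, near the 6.86% of all genes. Of all genes above background on all arrays, as 13 of the 16 were, 13% passed. Egln3, a prolyl hydroxylase that marks HIF-α for VHL, had log2 intensities of 9.40 ± 0.16 with Ube2o shRNA and 8.71 ± 0.15 with GFP shRNA (SD, n = 3 each) and rose by 0.70 (SE 0.12, limma adjusted p = 0.00204). It lies on chromosome 12 and passed narrowly with the chromosome's median subtracted (log2 change 0.44, adjusted p = 0.0473). The elongin genes Elob and Eloc and the cullin gene Cul2, which build the ligase with VHL, and Hif1a had log2 changes of -0.12, -0.30, 0.25 and 0.17 and did not pass. Of 15 measured HIF target genes, 1 fell and 0 rose, with a median of -0.067. This 6.67% too is near the share of all genes, and 10 of the 15 lay above background on all arrays. Vegfa, the angiogenic growth factor gene, had log2 intensities of 10.40 ± 0.10 with Ube2o shRNA and 11.03 ± 0.089 with GFP shRNA (SD, n = 3 each) and fell by 0.64 (adjusted p = 0.00224). The glucose transporter gene Slc2a1 and Ldha had log2 changes of 0.38 and 0.34, with adjusted p-values of 0.0603 and 0.119. The second Vegfa probe above background on all arrays had a log2 change of -0.35 (adjusted p = 0.0912). Neither Egln3 nor Vegfa passed with its probes averaged (adjusted p = 0.102 and 0.0567), but those averages take in dim probes, above background on 2 and 0 arrays for Egln3 and on 0 for Vegfa. Without background correction 3 HIF targets rose and 2 fell. In that setting more probes passed over the whole array too, 3966 against 2236 with the correction.

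**Figure D3:**
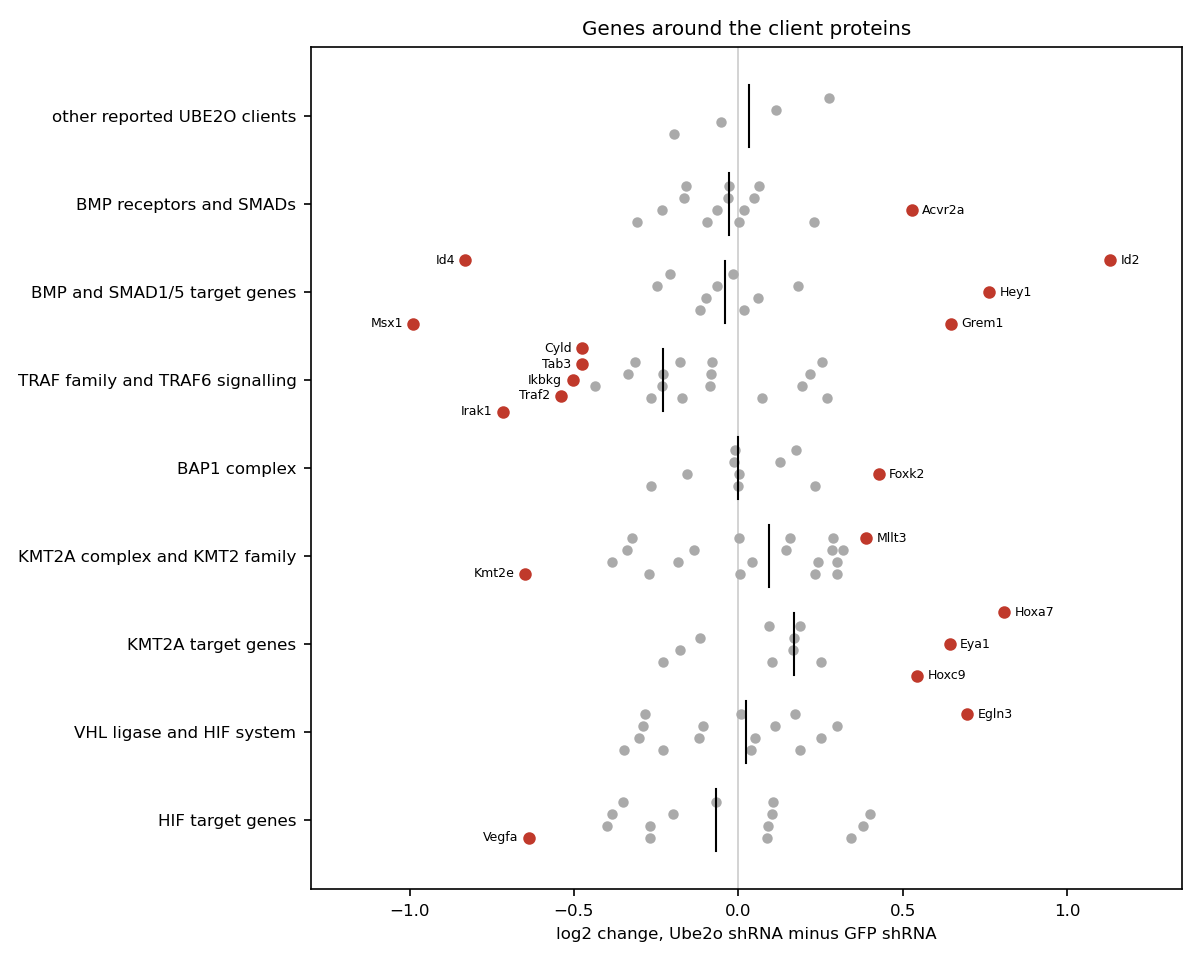
Log2 change (horizontal axis, Ube2o shRNA minus GFP shRNA) of each measured gene, by its brightest probe, in the lists around the client proteins, with genes that passed an adjusted p of 0.05 in red and named, the others in grey and a black bar at the median of each list. The 5 named TRAF6 pathway genes lie below 0, while the named BMP targets lie on both sides.

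The genes whose values over the 6 arrays lay nearest to those of Ube2o, after each gene was centred on its own mean, were Gata6, Ces1g, Ccl2, Ccl7 and Selenop. Their root-mean-square differences from Ube2o were 0.055, 0.075, 0.080, 0.083 and 0.10 log2 units, where the median over the 8913 candidate genes was 0.745. The transcription factor gene Gata6 gave signals of 516, 626 and 498 with Ube2o shRNA, against 1506, 1457 and 1501 with GFP shRNA. Ccl2, a chemokine that attracts monocytes, gave 1708, 2163 and 1766 with Ube2o shRNA, against 6024, 5167 and 5984 with GFP shRNA. The 5 genes had log2 changes from -1.55 to -1.40. The measure follows the difference between the groups, so the client genes, with log2 changes from -0.063 to 0.37, could not be among them.

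**Figure D4:**
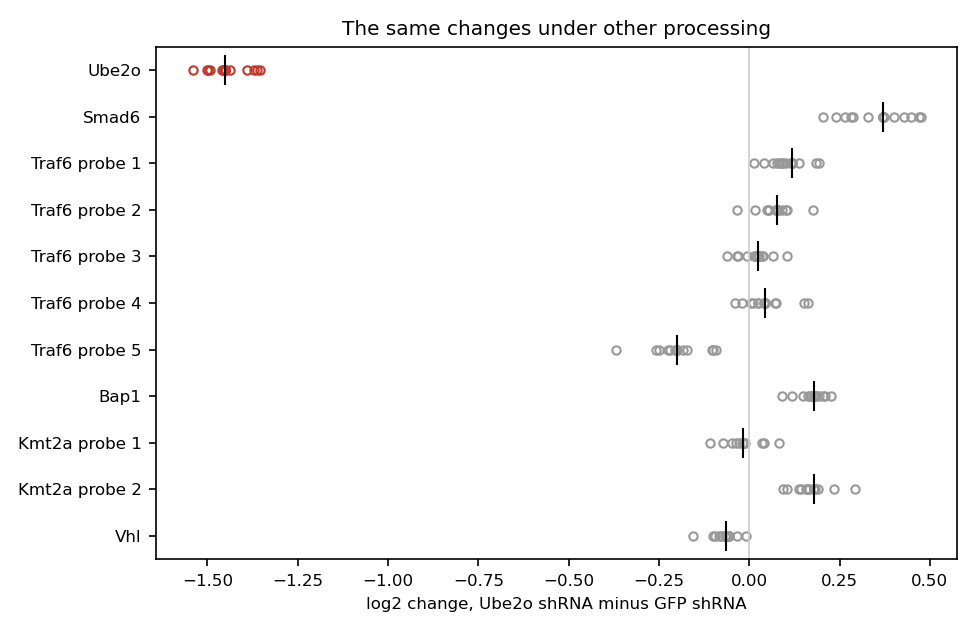
Log2 change (horizontal axis, Ube2o shRNA minus GFP shRNA) of each probe of Ube2o and the client genes as reported (black bar) and under the alternatives that could be run for it (circles, red where the adjusted p was under 0.05). Ube2o stays between -1.54 and -1.35, and the circles of 4 client probes fall on both sides of 0.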

How the data were processed

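Biotin-labelled cRNA was prepared with an Illumina TotalPrep kit from RNeasy-purified RNA, per the labels' protocols. Arrays were grouped by title, 3 to each shRNA; 1 label of the Ube2o arrays writes siRNA. The authors deposited probe intensity on a linear scale, and a series matrix of log2 values that the files show to be quantile normalized (sorted values equal within 0.001); any earlier scanning, summary or background step is not given in the sources used here. Deposited intensity was corrected with normexp (saddle method, offset 50), quantile normalized and log2 transformed. The test was limma 3.58.1 (R 4.3.3; lmFit, eBayes, two-sided), adjusted by Benjamini-Hochberg over all 45281 probes, threshold 0.05. No detection p-values were at hand, so neqc was not run, and a probe was called above background by a one-sided p under 0.05 in a normal distribution set by the mode of an array's log2 signal and the spread below it. The offset compresses changes of dim genes.

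Probes were named from the platform annotation, updated through the RefSeq table of GRCm38.p6: 35784 had 1 symbol, 0 several and 9497 none here. A listed gene is its brightest probe. Of 135 genes in the lists, 125 were measured. Hadha, Smad4, Smurf2, Runx2, Traf3, Irak4, Tifa, Chuk, Mbd5 and Hk2 had no named probe here and were not assessed. The members and lists were chosen with earlier results of these data known. Genes named were all members and further clients, up to 4 called genes per list by smallest p (or, with none called, the lowest p), uncalled genes added as context by their role, and the 5 genes nearest to Ube2o among those above background on all arrays, predicted models left out. Grem1 and Tab3 were named beyond the limit of 4. The procedure was tested on simulated data. Titles share replicate numbers, but no label says that these pair arrays, so no block was used. As a check, deviations of same-numbered arrays correlated at 0.016, -0.085 and 0.045, and those of differently numbered arrays at -0.098 to 0.079.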

Additional observations from a re-analysis of the deposited data

How the results depend on the processing

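Ube2o passed under all 18 alternatives, with log2 changes from -1.54 to -1.35 (-1.50 to -1.36 with 1 array left out), and 0 of 172 alternative values of client probes passed, the lowest adjusted p being 0.0872, for Smad6 with the filter on 6 arrays. The 172 include the alternative of a change of at least 1.5 times, which can only remove calls and so could not add a client. The log2 change of Smad6 lay between 0.20 and 0.47. With the replicate block, a number that the arrays share without evidence of pairing, Ube2o kept its log2 change of -1.45 (adjusted p = 4.96e-07), Smad6 had an adjusted p of 0.16 and the calls over the array numbered 2139, while the calls of Foxk2 and Mllt3 were lost. Signs turned only for changes near 0. With both Kmt2a probes averaged (log2 changes of -0.017 and 0.18), the gene had a log2 change of 0.081, a turn that follows from the averaging. The brighter Kmt2a probe by itself ranged from -0.072 to 0.040 with 1 array left out. The cause of the other turns was not tested. The third Traf6 probe became -0.033 with median scaling and -0.0073 with array weights, and ranged from -0.062 to 0.11 with 1 array left out. In the same way the second Traf6 probe ranged from -0.035 to 0.18 and the fourth from -0.039 to 0.16.

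The 2236 calls over the array became 3966 with no background correction, 584 with the offset of 16, 3941 in the series matrix values, 3505 and 3679 with the filters on 3 and 6 arrays, and 965 with a change of at least 1.5 times, and 1448 to 1628 with 1 array left out (1448 without the first GFP shRNA array). The 19 calls among 125 list genes became 34, 5, 34, 32 and 11 with no background correction, the offset of 16, the series matrix values, the filter on 6 arrays and a change of at least 1.5 times, and 13 to 16 with 1 array left out. The offset of 16 kept Msx1, Id2, Id4, Hey1 and Irak1. Dim signal limits the dimmest 2 Traf6 probes, Prkaa2 and Maf. The alternative neqc was not run, since it needs detection p-values or control probes.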

Other observations

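Ube2o lies on chromosome 11, and the 3 measured genes on each side of it in the RefSeq table were looked up after the other results were known. On one side Qrich2, Prpsap1 and Sphk1, the sphingosine kinase gene next to Ube2o, had log2 changes of -0.0013, -0.031 and 0.38 and did not pass. On the other side Aanat lay above background on 0 arrays. Rhbdf2, which encodes the iRhom2 partner of the protease ADAM17, was above background on 5 of 6 arrays and fell by 0.48 (SE 0.12, limma adjusted p = 0.0251). The next gene, Cygb, encoding the haem protein cytoglobin, gave signals of 202, 223 and 216 with Ube2o shRNA, against 492, 444 and 482 with GFP shRNA. The groups did not overlap, and its log2 change of -1.42 (SE 0.12, limma adjusted p = 5.48e-07) was close in size to that of Ube2o. The genes of chromosome 11 above background on at least 3 arrays had a median log2 change of -0.08 (893 genes).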
